A study of Mus musculus with 17 samples.

Results

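The 2 libraries labelled as p53 knockout clones of tumour line cells (KO clones) were compared with the 2 libraries labelled as mutant p53 clones (Mut clones), which the series' design text calls controls. The 4 libraries were chosen by their titles alone, out of 17 in the series. All 4 go back to mesenchymal stem cells (MSC) from the bone marrow of C57BL/6 mice with a knock-in of the p53 R172H allele, by way of tumours those cells formed, and all 4 are titled first generation. The KO clones are therefore clones in which a mutant p53, not a wild-type p53, was targeted, and neither group carries a treatment. The rest of the series are 3 libraries of the MSC, 6 of first-generation tumour lines (TL1) and 4 of second-generation tumour lines (TL2) with the same allele. Tumour-derived cells were kept on agar-coated plates in medium with 15% serum and leukaemia inhibitory factor (LIF), at passages 2 to 20. Each clone is 1 library. The labels do not say from which tumour line a clone was taken, how p53 was knocked out, or whether the 2 libraries of a group are separate cultures, so the p-values measure the spread between these libraries only.

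The p53 protein, encoded by Trp53 in the mouse, is a transcription factor that turns on genes for cell cycle arrest, repair and apoptosis, among them its own antagonist Mdm2. R172H is the mouse counterpart of a hotspot mutation of human tumours that disturbs the fold of the DNA-binding domain. Mutant proteins of this kind lose most binding to p53 sites, and they have been reported to act on other promoters through partner factors. Mesenchymal stem cells are stromal precursors that can take on bone, cartilage, fat and, in some settings, muscle programmes.

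Library totals were 13321954 and 13580595 counts in the KO clones and 13661846 and 12215025 counts in the Mut clones. Levels are given as CPM, a count normalized for library size, with the KO clones before the Mut clones and clone 1 before clone 2. The ribosomal transcript Rn45s made up 4.14% of KO clone 2 and 0.878% to 1.05% of the other 3 clones, and with Rn45s left out before scaling the calls given below were 1737 higher and 1465 lower. The clones of each group differed from one another well beyond sampling noise, with a chi-square per degree of freedom of 72.2 for the KO clones and 59.4 for the Mut clones. In sum over 26 mesenchymal stromal markers the KO clones held 8988 and 7907 CPM, the Mut clones 7346 and 4436 CPM, the tumour lines 5110 to 8517 CPM and the MSC 11372 to 15299 CPM. By the test given below, 7 of the 23 tested were called higher in the KO clones, 4 lower and 12 not called (median log2 change -0.27). The shares were 30.4% and 17.4%, against 14.2% and 12% of all genes. Integrin beta 1 (Itgb1), 1 of these markers, was at 2009 and 2075 CPM (KO) against 838 and 807 CPM (Mut). Thy1, another one, was at 0.157 and 0.239 CPM (KO) and 0 and 0.0796 CPM (Mut) against 5.09 to 112 CPM in the MSC.

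The 2 groups of clones resembled different tumour lines, which bears on every comparison that follows. Over the 12238 genes tested, the KO clones correlated with each other at r = 0.963 and the Mut clones at r = 0.966 (log2 CPM), but a KO clone and a Mut clone correlated at only 0.733 to 0.751. Both Mut clones were most like line 3 of TL2 (r = 0.952 and 0.939) and next most like line 3b of TL1 (0.907 and 0.893). Both KO clones were least like that same TL2 line (0.734 and 0.722) among the 13 other libraries, and most like line 2b of TL1 (0.904 and 0.906). These correlations run across genes, share the clone libraries between them, and are given as a description. Since the labels name no line of origin, p53 status and line of origin cannot be told apart in this design. For most genes named below, the range over the 10 tumour lines, all of which carry mutant p53, is therefore given beside the clones, in parentheses as "lines".

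**Figure D1:**
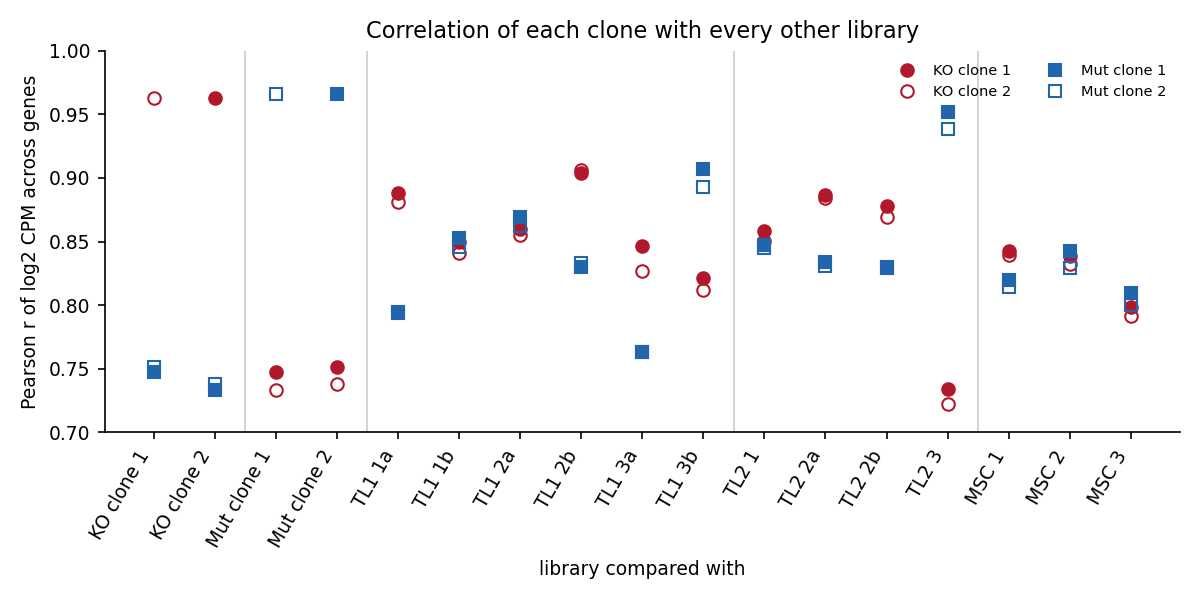
Pearson correlation of log2 CPM across 12238 genes (y axis) between each of the 4 clones (colour and fill) and every other library (x axis). The Mut clones (squares) are highest against each other and TL2 3, at 0.939 or more, and the KO clones (circles) lie at 0.734 and 0.722 against TL2 3.

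The clones differed across much of the genome. Of 12238 genes tested, 1734 (14.2%) were called higher and 1466 (12%) lower in the KO clones at an adjusted p under 0.05 (edgeR quasi-likelihood test). The change was more than 2-fold for 1498 of the higher and 1190 of the lower genes, and the median change of all genes was close to 0 (log2 0.005). By library totals alone, which moves that median to -0.13, the calls were 1472 higher and 1816 lower. Without regard to the test, both KO clones lay above both Mut clones for 4231 genes (34.6%) and below them for 4294 (35.1%), so that separation of 2 libraries from 2 is common here. The smallest two-sided exact permutation p for 2 against 2 is 0.333, and single values are tested only through the fit across genes. When the spread was estimated from all 17 libraries, in which lines of 1 group differ widely, 512 of 13796 genes (3.71%) were called higher and 308 (2.23%) lower, of which 500 and 291 were also called in the fit of the clones alone. Leaving out 1 clone left 796 to 1016 genes called higher and 502 to 753 lower.

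The differences came from both sides. Both KO clones lay above all 10 tumour lines for 482 of the 1734 higher genes (27.8%), and both Mut clones lay below all 10 lines for 524 of them (30.2%). Among the 1466 lower genes, both KO clones lay below all lines for 375 (25.6%) and both Mut clones above all lines for 460 (31.4%). Over all genes tested, the corresponding shares were 6.58% and 7.76% for the first pair and 6.35% and 8.29% for the second. All 4 clones lay inside the range of the lines for 393 higher genes (22.7%) and 303 lower genes (20.7%), against 41.2% of all genes tested and 48.1% of the genes not called. For these called genes the lines, all with mutant p53, spanned the difference between the clones. Within a group, the 2 KO clones differed by over 4-fold for 74 of 9054 genes whose mean reached 10 CPM, and the 2 Mut clones for 80 of 8971. Between the group means, 911 of 9757 such genes differed by over 4-fold. Where a gene list below has 0 members called in a direction by edgeR, the counts at an unadjusted p under 0.05 and by DESeq2 were 1 and 0 for skeletal muscle genes, 0 and 0 for contractile and for cell cycle genes, 1 and 1 for proteoglycans, 2 and 2 for ribosome biogenesis genes, 2 and 1 for pluripotency genes and 1 and 0 for the p53 family.

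**Figure D2:**
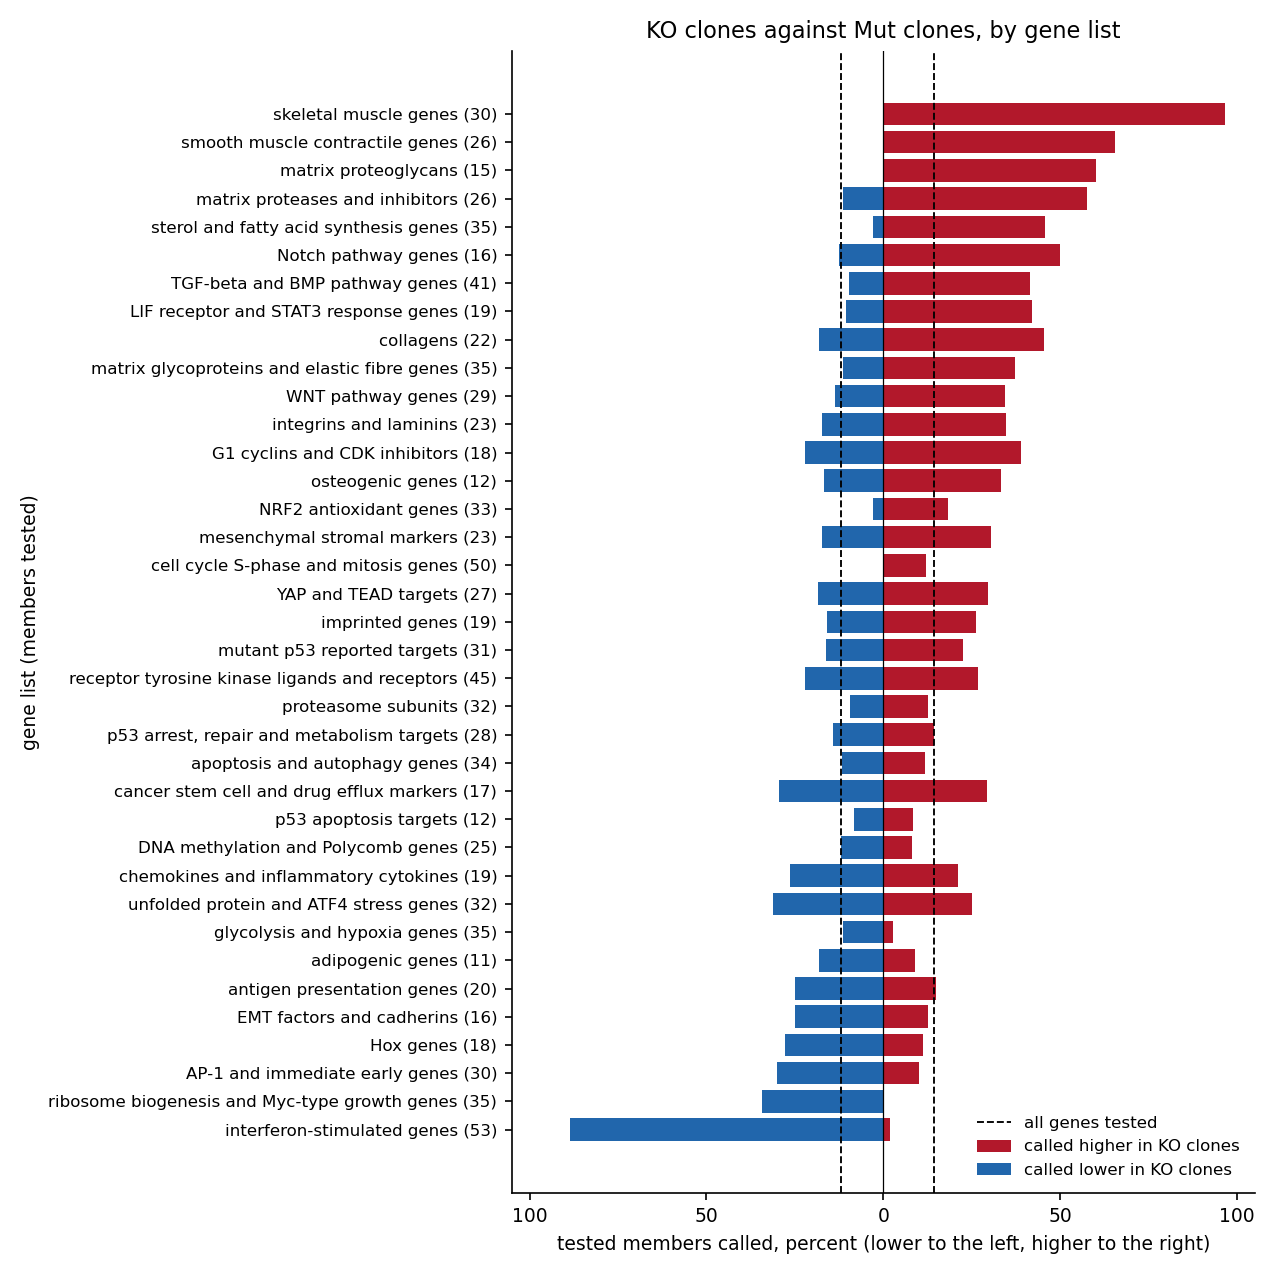
Percent of the tested members of each gene list called higher (right, red) or lower (left, blue) in the KO clones, for lists with at least 10 members tested, given in parentheses. Dashed lines mark the 14.2% and 12% of all genes called, and skeletal muscle genes (29 of 30) and interferon-stimulated genes (47 of 53) lie farthest from them.

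Trp53 (chr11:69580348-69591873, GRCm38) was at 80.8 and 89.6 CPM (KO) against 358 and 279.7 CPM (Mut). The KO clones were lower than every other library of the series, with 122 to 311 CPM in the tumour lines and 197 to 263 CPM in the MSC. The transcript was present in the KO clones at a reduced level (log2 change -1.89, SE 0.23, adjusted p = 0.00259). Counts per gene do not show whether the transcripts that remain code for a full protein, and the sources used here do not give the targeted site. The adjusted p was 0.0202 in the fit of all 17 libraries.

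Of all genes tested, 12% were called lower and 14.2% higher. Among the 8 tested members of the p53 family and its regulators, 3 fell and none rose (37.5% and 0%, median log2 change -0.37). Besides Trp53 these were Cdkn2a, whose ARF product blocks Mdm2, and Mdm4, a binding partner that holds p53 back. Cdkn2a was at 238 and 198 CPM (KO) against 524 and 408 CPM (Mut) (log2 change -1.08, SE 0.23, adjusted p = 0.0177, lines 175 to 573 CPM). Mdm4 was at 14.7 and 13.9 CPM (KO) against 29.9 and 28.8 CPM (Mut) (log2 change -1.02, SE 0.25, adjusted p = 0.0268, lines 7.75 to 36.5 CPM). Mdm2, the ubiquitin ligase of p53 and a direct target of the wild-type protein, was at 60.6 and 68.4 CPM (KO) against 59.1 and 57.5 CPM (Mut). Its groups lay within the lines' range of 41.5 to 82.9 CPM, and it was not called (log2 change 0.16, SE 0.21, adjusted p = 0.608). The relatives Trp63 and Trp73 were too low to be tested, with no Trp63 counts in the Mut clones and at most 1.59 CPM in the KO clones.

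Genes that wild-type p53 induces did not move as a group. Of 28 tested arrest, repair and metabolism targets, 4 were called higher and 4 lower (14.3% each, median -0.01). Of 12 tested apoptosis targets, 1 was called each way (8.33% each). The shares of all genes were 14.2% higher and 12% lower, so neither list stood apart from all genes by its counts. Cdkn1a, which encodes the p21 inhibitor of cyclin-dependent kinases, was at 156 and 134 CPM (KO) against 11.8 and 13.53 CPM (Mut) and rose (log2 change 3.53, SE 0.24, adjusted p = 0.000265). Both Mut clones lay below the lines' range of 34.4 to 312 CPM and at the level of the MSC (11.01 to 23.3 CPM), while the KO clones lay inside the lines' range. The other higher genes of the list were Dram1, an autophagy regulator, Ccng1, a cyclin G, and Ak1, an adenylate kinase, with log2 changes of 2.20, 0.91 and 1.25. The 4 lower genes were Sesn2, a stress sensor upstream of mTORC1 (24.2 and 22.2 CPM (KO) against 87.3 and 76.5 CPM (Mut), log2 change -1.81, SE 0.23, adjusted p = 0.00319, lines 10.4 to 75.5 CPM), Plk3, Slc19a2 and Rrm2b. Bbc3, which encodes the pro-apoptotic PUMA, was at 4.33 and 3.74 CPM (KO) against 23.1 and 23.6 CPM (Mut), with both KO clones below the lines' lowest value (log2 change -2.51, SE 0.31, adjusted p = 0.00294, lines 4.88 to 24.6 CPM). Ctsd, a lysosomal protease, rose from 397 and 336 CPM to 834 and 823 CPM, and Bax was not called at 61.6 and 66.9 CPM (KO) against 93.4 and 109 CPM (Mut) (log2 change -0.64, SE 0.21, adjusted p = 0.0682, lines 32.7 to 101 CPM).

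Genes reported in the literature as targets of mutant p53 were split too. Of 31 tested, 7 were called higher and 5 lower (22.6% and 16.1%, against 14.2% and 12% of all genes, median -0.36). Nrp2, a neuropilin co-receptor, was at 52.5 and 30.4 CPM (KO) against 573 and 907 CPM (Mut), below every tumour line in the KO clones (log2 change -4.14, SE 0.38, adjusted p = 0.00115, lines 118 to 633 CPM). Pla2g16, a phospholipase, was at 64.00 and 93.1 CPM (KO) against 13.3 and 8.28 CPM (Mut) and lay above every line in both KO clones (log2 change 2.87, SE 0.35, adjusted p = 0.00268, lines 6.63 to 30.7 CPM). Of 32 tested proteasome subunits, a group reported to be raised by mutant p53, 4 were called higher and 3 lower. Their shares of 12.5% and 9.38% were below those of all genes. Psmd2, 1 of the called subunits, was at 760.2 and 844 CPM (KO) against 422 and 288 CPM (Mut) (log2 change 1.19, SE 0.25, adjusted p = 0.0178, lines 314 to 853 CPM). Psma6 was at 121 and 116 CPM (KO) against 201 and 272 CPM (Mut) (log2 change -0.98, SE 0.22, adjusted p = 0.0222, lines 104 to 321 CPM).

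**Figure D3:**
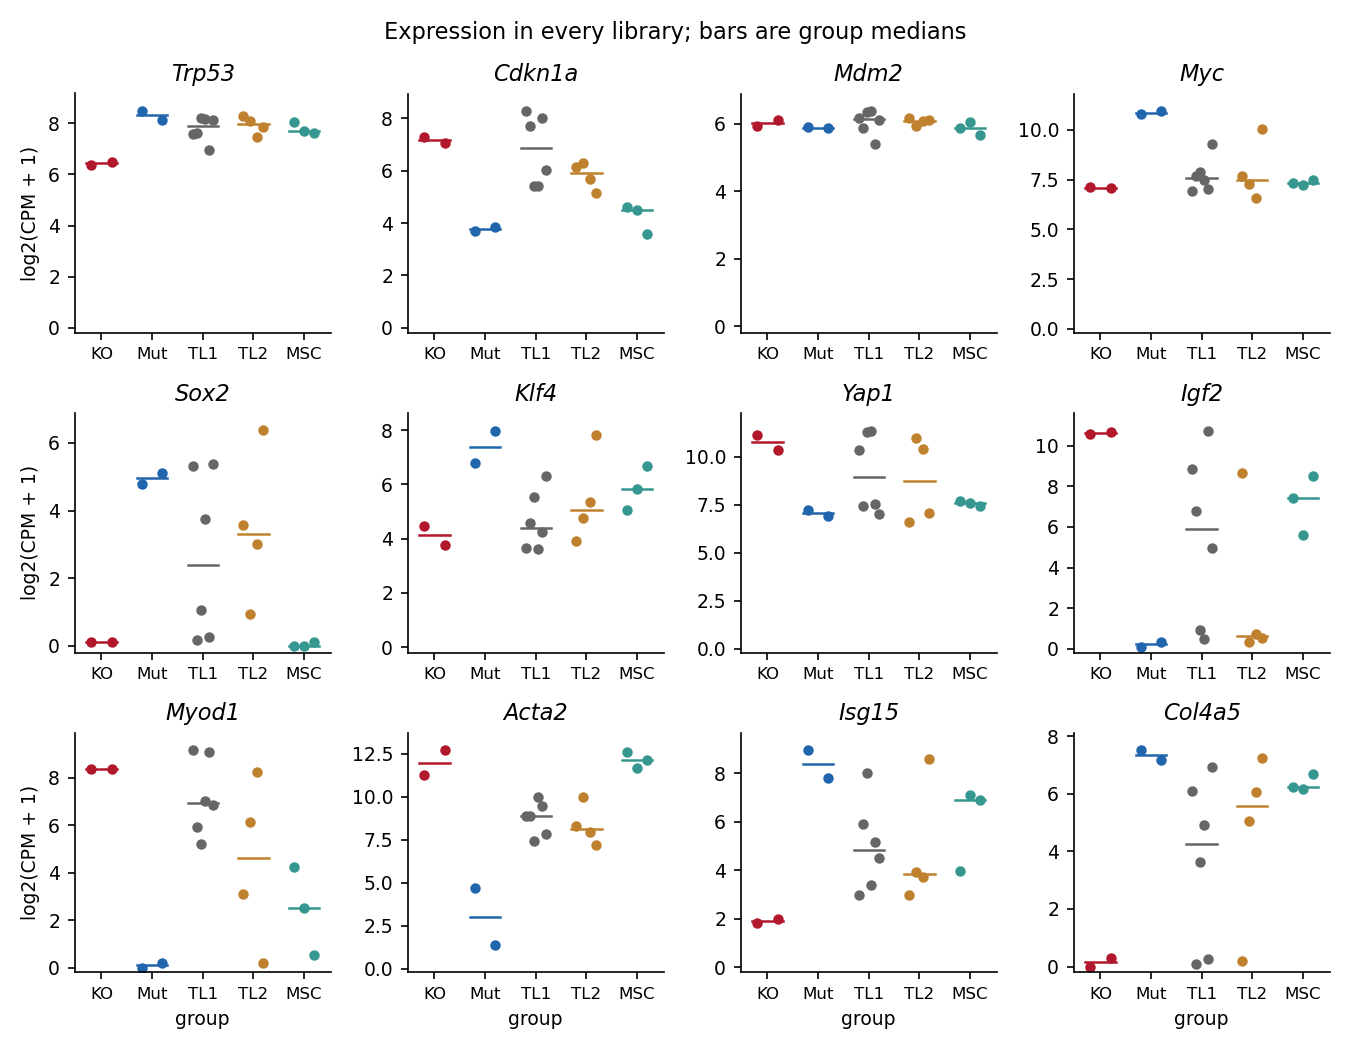
Level of 12 genes as log2(CPM + 1) (y axis, pseudocount 1) in every library, by group (x axis), with a bar at each group median. Trp53 is lowest in the 2 KO clones, Mdm2 in all 4 clones lies within the range of the lines, and Myc is highest in the 2 Mut clones.

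Myc, a transcription factor that drives ribosome production and growth, was at 137 and 136 CPM (KO) against 1762 and 1987 CPM (Mut) (log2 change -3.76, SE 0.22, adjusted p = 0.000179). The Mut clones lay above all 10 lines (94.9 to 1042 CPM) and the KO clones inside the lines' range and near the MSC (148 to 180.4 CPM). Of 35 tested ribosome biogenesis and Myc-type growth genes, a list that counts Myc itself, 12 fell and none rose (34.3%, against 12% of all genes, median -0.50). Odc1, the rate-limiting enzyme of polyamine synthesis, was at 225 and 231 CPM (KO) against 689.8 and 973 CPM (Mut) (log2 change -1.85, SE 0.24, adjusted p = 0.00344, lines 141 to 758 CPM). Wdr12, a ribosome assembly factor, was at 47.3 and 46.5 CPM (KO) against 116 and 145 CPM (Mut) (log2 change -1.46, SE 0.22, adjusted p = 0.00618, lines 24.7 to 76.2 CPM). Mxi1, a repressor that competes with Myc for its partner Max, fell as well, from 138 and 97.7 CPM to 34.2 and 19.8 CPM. The fit of all 17 libraries called 1 of the 35, and leaving out 1 clone left 4 to 6.

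Pluripotency genes were mostly silent. Of 37 listed, 13 had no count in any clone, among them Pou5f1, which encodes Oct4. Only 9 were expressed enough to be tested, and 3 of these fell (33.3%, against 12% of all genes). The fit of all 17 libraries called 0 members of the list. Sox2, a pluripotency and neural progenitor factor, had 1 count in each KO clone and 26.7 and 33.5 CPM in the Mut clones, inside the lines' 0.130 to 81.7 CPM (Mut over KO ratio 378, 95% counting interval 104 to 3126, adjusted p = 0.000164). Klf4 was at 20.9 and 12.7 CPM (KO) against 109.7 and 252 CPM (Mut) (log2 change -3.40, SE 0.49, adjusted p = 0.00752, lines 11.4 to 225 CPM), and Klf2, its relative, fell too (log2 change -2.45). Nanog was near 1 CPM in all 4 clones, at 0.866 and 1.83 CPM (KO) against 1.01 and 0.955 CPM (Mut), and was not called (adjusted p = 0.613).

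Markers used for cancer stem cells and drug efflux went both ways, 5 of 17 tested in each direction. The share was 29.4% each, against 14.2% higher and 12% lower of all genes. The fit of all 17 libraries called 0 of the list higher and 1 lower. Cd24a, a surface glycoprotein, rose to 165 and 179.6 CPM from 5.36 and 7.08 CPM (log2 change 4.81, SE 0.27, adjusted p = 0.000152, lines 1.49 to 310.4 CPM). Nes, an intermediate filament of progenitor cells, was at 852 and 789 CPM (KO) against 86.8 and 68.5 CPM (Mut) (log2 change 3.42, SE 0.24, adjusted p = 0.00028, lines 78.1 to 1106 CPM). Abcg2, a drug efflux pump, was at 83.5 and 82.9 CPM (KO) against 7.83 and 18.1 CPM (Mut) (log2 change 2.70, SE 0.41, adjusted p = 0.0067, lines 3.02 to 64.2 CPM). Abcb1a, another efflux pump, had no counts in the KO clones and 1.74 and 2.95 CPM in the Mut clones (at least 19.5-fold lower, adjusted p = 0.00859, lines 1.12 to 7.02 CPM). Cd44, at 467 and 387 CPM (KO) against 499.5 and 399 CPM (Mut), did not differ beyond its error (log2 change -0.06, SE 0.22, adjusted p = 0.871, lines 147 to 446 CPM). Aldh1a3 and Id4 were at or below 0.315 CPM in every clone and were not tested.

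The most complete difference was in skeletal muscle genes. Of 30 tested, 29 rose in the KO clones and none fell (96.7%, against 14.2% of all genes), with a median log2 change of 9.46, or 8.56 with genes that have no Mut counts taken at their lower bounds. Myod1, the master regulator of the myogenic programme, was at 327 and 332 CPM (KO) against 0 and 0.159 CPM (Mut). In the tumour lines it ran from 0.129 to 572 CPM. Myog, which drives terminal differentiation, was at 179 and 238 CPM (KO) against 0.0725 and 0.0796 CPM (Mut) (KO over Mut ratio 2742, 95% counting interval 759 to 22644, adjusted p = 6.34e-05, lines 0 to 265 CPM). Myf5, an early determination factor, reached 89.3 and 61.03 CPM in the KO clones with no counts in either Mut clone (at least 661-fold higher, adjusted p = 0.000244, lines 0 to 197 CPM). These 3 transcription factors were high in both KO clones and in some of the lines, and at or near 0 in both Mut clones.

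Structural and fusion genes followed the same split. Acta1, skeletal alpha actin, was at 1110.2 and 1533 CPM (KO) against 0.435 and 0.557 CPM (Mut) and exceeded every tumour line in the KO clones (log2 change 11.37, SE 0.39, adjusted p = 5.34e-05, lines 0.772 to 486 CPM). Cdh15, the cadherin of muscle precursors, was at 1161 and 1127 CPM (KO) against 0.145 and 0.318 CPM (Mut) (log2 change 12.25, SE 0.39, adjusted p = 5.34e-05, lines 1.09 to 394 CPM). Embryonic myosin Myh3 was at 225 and 289.8 CPM (KO) against 0.0725 and 0 CPM (Mut) (KO over Mut ratio 6773, 95% counting interval 1215 to 267571, adjusted p = 8.69e-05, lines 0 to 78.3 CPM). Tmem8c, which encodes the fusion protein myomaker, was at 153 and 197 CPM against no counts (at least 1535-fold higher, adjusted p = 0.000132, lines 0 to 60.2 CPM). Des, desmin, was at 1202 and 422 CPM (KO) against 0.507 and 0.159 CPM (Mut) (log2 change 11.20, SE 0.91, adjusted p = 0.00207, lines 0.193 to 1538 CPM). Pax3, a factor of embryonic muscle precursors, was the tested member that was not called, at 0.394 and 0 CPM (KO) against 2.25 and 1.19 CPM (Mut) (log2 change -3.05, SE 1.06, adjusted p = 0.0773, lines 0 to 17.3 CPM). All 4 clones lay inside the range of the lines for 6 of the 29 higher genes. The count was 19 in the fit of all 17 libraries and 26 to 29 when 1 clone was left out. In the lines the median level of these genes ran from 0.25 to 6.27 on a log2(CPM + 1) scale, close to the span from the Mut clones (0.16 to 0.20) to the KO clones (6.57 to 6.66).

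**Figure D4:**
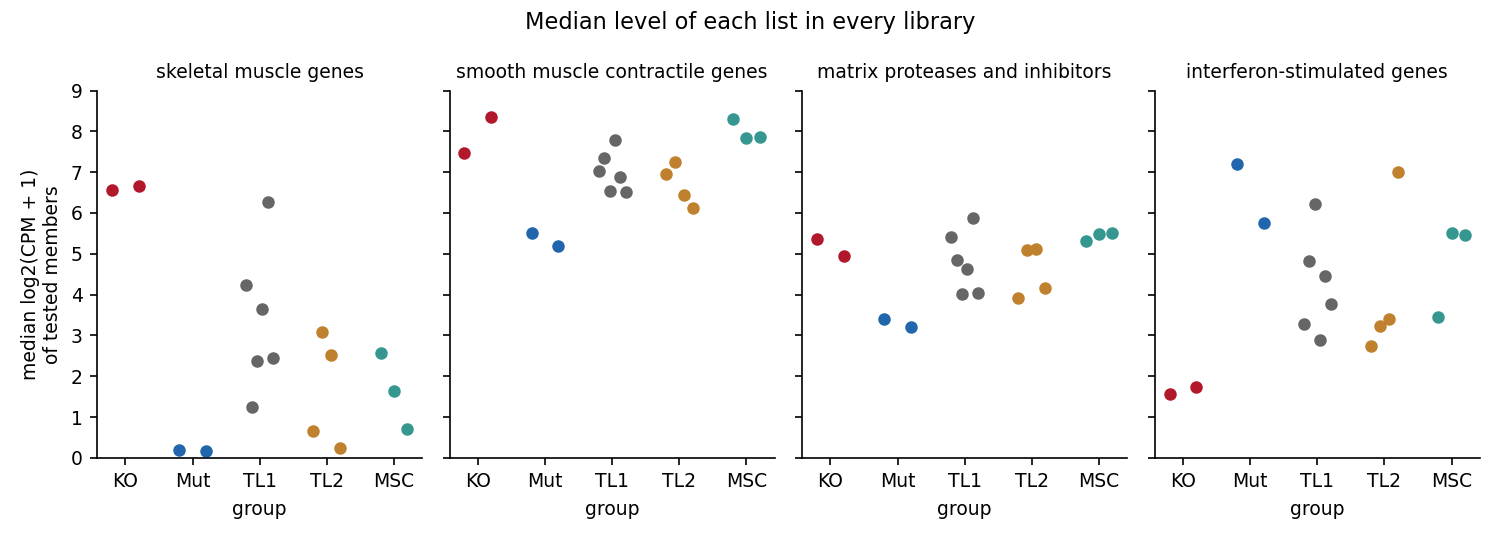
Median log2(CPM + 1) over the tested members of 4 gene lists (y axis) in every library, by group (x axis, 1 point a library). The KO clones lie at 6.57 and 6.66 for skeletal muscle genes and at 1.57 and 1.73 for interferon-stimulated genes, outside the range of the 10 tumour lines in both panels.

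Genes of a smooth muscle contractile list rose as well, 17 of 26 tested and none lower (65.4%, median 1.77). The list also holds genes of the sarcomere, such as Pdlim3, so it is not a list of smooth muscle alone. Its median level (log2(CPM + 1)) was 7.47 and 8.34 in the KO clones and 5.50 and 5.18 in the Mut clones. The lines ran from 6.11 to 7.79, so both Mut clones lay below them and only KO clone 2 lay above. Acta2, smooth muscle actin, was at 2437 and 6660.0 CPM (KO) against 25.2 and 1.59 CPM (Mut) (log2 change 8.41, SE 1.69, adjusted p = 0.0321). Both Mut clones lay below all tumour lines (148 to 1025 CPM), and the KO clones above them, KO clone 1 below and KO clone 2 above the span of the MSC (3295 to 6291 CPM). Tagln, an actin-binding protein of the same cells, was at 222 and 1419.8 CPM (KO) against 4.13 and 0.955 CPM (Mut) (log2 change 8.33, SE 1.45, adjusted p = 0.0229, lines 16.4 to 230.3 CPM). Synpo2, an actin bundling protein, was at 90.4 and 104 CPM (KO) against 1.23 and 1.43 CPM (Mut) (log2 change 6.20, SE 0.30, adjusted p = 0.000106, lines 5.15 to 37.5 CPM). Pdlim3, a sarcomere and stress fibre protein, was at 118 and 160.2 CPM (KO) against 0.0725 and 0.0796 CPM (Mut) (KO over Mut ratio 1829, 95% counting interval 506 to 15111, adjusted p = 8.69e-05, lines 0 to 11.9 CPM). The KO clones were not alike here. Myl9, a myosin light chain, was at 28.97 and 337 CPM, Cnn1, calponin, at 1.18 and 66.6 CPM, and Actg2, an enteric actin, at 2.91 and 165 CPM, each far higher in KO clone 2, the library with the larger Rn45s share. Cnn1 and Actg2 were not called (adjusted p = 0.0903 and 0.0748). Without KO clone 2, 9 of the 26 were called higher, without Mut clone 2 there were 7, and the fit of all 17 libraries called 10.

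Many muscle and contractile promoters carry the CArG box, the site of serum response factor (CC, 6 bases of A or T, GG). The stretches below, from RefSeq promoters (GRCm38.p6), hold the CArG box in capitals for 3 genes that rose: Actc1, cardiac alpha actin, at chr2:114052883-114052952 (minus strand), Acta1 at chr8:123894809-123894878 (minus strand) and Myl9 at chr2:156775273-156775342 (plus strand). They were chosen as genes that rose and hold the box, so they do not show whether the box and the rise go together.
Actc1: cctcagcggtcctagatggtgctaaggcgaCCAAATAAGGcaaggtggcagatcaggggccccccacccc
Acta1: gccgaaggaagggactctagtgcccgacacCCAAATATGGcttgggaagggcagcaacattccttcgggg
Myl9: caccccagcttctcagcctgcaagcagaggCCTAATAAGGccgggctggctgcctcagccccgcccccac
On both strands of the 250 bases before the start, the box stood in 5 of 24 contractile genes that had a promoter entry (20.8%), in 2 of 24 skeletal muscle genes (8.33%) and in 439 of 27025 genes (1.62%). Among the contractile genes that rose it stood in 3 of 14 (21.4%), close to the share over the list, so some genes that hold it were not called. Actc1 itself had 48.3 and 51.1 CPM in the KO clones but no counts in either Mut clone. A match is a description of these letters and was not tied to any measured binding.

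Interferon-stimulated genes moved the other way. Of 53 tested, 47 fell in the KO clones and 1 rose (88.7% lower, against 12% of all genes), with a median log2 change of -5.78. These genes answer type I and type II interferon through STAT and IRF transcription factors, and code for antiviral proteins. Isg15, a ubiquitin-like modifier, was at 2.52 and 2.95 CPM (KO) against 491 and 219.8 CPM (Mut) (log2 change -7.00, SE 0.52, adjusted p = 0.000701, lines 6.89 to 383 CPM). Ifit1 and Ifit3, which bind viral RNA or the proteins that do so, were at 1.18 and 2.87 CPM (KO) against 494 and 207 CPM (Mut) and at 0.708 and 0.319 CPM (KO) against 567.7 and 149 CPM (Mut), respectively. Oas3, an enzyme that activates RNA decay, was at 0.236 and 0.319 CPM (KO) against 138 and 45.4 CPM (Mut) (log2 change -8.31, SE 0.83, adjusted p = 0.00301, lines 0.449 to 202 CPM). Cxcl10, a chemokine for T cells, was at 7.01 and 3.59 CPM (KO) against 518 and 439 CPM (Mut) (log2 change -6.48, SE 0.39, adjusted p = 0.000199, lines 6.01 to 683 CPM). For the first 4 of these genes both KO clones lay below all 10 tumour lines, and for Cxcl10 1 of the 2 did.

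Factors of the pathway itself fell with them. Irf9 was at 9.997 and 7.01 CPM (KO) against 90.6 and 67.6 CPM (Mut) (log2 change -3.20, SE 0.31, adjusted p = 0.00113, lines 11.3 to 109 CPM). Irf7, which amplifies the response, was at 0.551 and 0.319 CPM (KO) against 378 and 74.7 CPM (Mut) (log2 change -8.98, SE 1.19, adjusted p = 0.00887, lines 0.973 to 484 CPM). Usp18, which removes Isg15 and dampens receptor signalling, was at 0.236 and 0 CPM (KO) against 182 and 50.4 CPM (Mut). Oas2 had no counts in the KO clones and 55.95 and 12.02 CPM in the Mut clones (at least 295-fold lower, adjusted p = 0.0225, lines 0 to 61.3 CPM). The 2 Mut clones were themselves unequal, and Mut clone 1 was higher for each gene named here. The exception in direction was Gbp4, a guanylate-binding protein, at 14.4 and 10.4 CPM (KO) against 2.03 and 0.398 CPM (Mut) (log2 change 3.34, SE 0.73, adjusted p = 0.0204, lines 0.841 to 138 CPM). The 5 members not called were Oas1g, Trim30a, Iigp1, Dtx3l and Gbp6, of which the first 4 were lower in both KO clones (Iigp1 at 0.394 and 0 CPM (KO) against 159 and 8.84 CPM (Mut), adjusted p = 0.0548) and Gbp6 overlapped.

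The tumour lines spanned a wide range of this programme. Their median level over the list ran from 2.73 to 7.01 (log2(CPM + 1)), the MSC from 3.44 to 5.51, the Mut clones were at 7.20 and 5.77 and the KO clones at 1.57 and 1.73. The fit of all 17 libraries called 5 of the 53 lower, and leaving out 1 clone of the 4-library fit left 26 to 50, with 26 when either KO clone was left out.

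The core of the interferon-stimulated response element (ISRE), GAAANNGAA on either strand with overlapping matches counted, stood in the 250 bases before the start of 19 of the 36 list genes with a promoter entry (52.8%) and of 17 of the 33 that fell (51.5%), against 2211 of 27025 genes (8.18%). The stretches below show it in capitals for 5 genes that fell, from RefSeq promoters (GRCm38.p6), at chr4:156200846-156200926 (minus strand), chr5:120777690-120777764 (minus strand), chr5:92349064-92349132 (minus strand), chr19:34640750-34640843 (plus strand) and chr19:34583344-34583465 (plus strand) in that order. In the last 2 the capitals read on the opposite strand.
Isg15: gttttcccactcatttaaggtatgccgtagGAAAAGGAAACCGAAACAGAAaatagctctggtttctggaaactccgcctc
Oas3: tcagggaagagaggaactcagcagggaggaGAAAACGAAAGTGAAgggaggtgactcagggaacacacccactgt
Cxcl10: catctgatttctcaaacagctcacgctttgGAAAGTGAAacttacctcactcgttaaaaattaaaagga
Ifit1: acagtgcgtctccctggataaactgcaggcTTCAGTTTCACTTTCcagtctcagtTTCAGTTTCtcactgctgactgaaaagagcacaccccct
Ifit3: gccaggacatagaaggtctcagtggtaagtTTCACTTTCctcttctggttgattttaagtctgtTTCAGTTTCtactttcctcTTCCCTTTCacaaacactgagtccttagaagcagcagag
Isg15 has 3 overlapping copies, Oas3 has 2, Cxcl10 has 1 and Ifit1 and Ifit3 have 3 each. These 5 were chosen as genes that fell and hold the core, so they do not show whether the core and the fall go together. Oas1g and Trim30a also hold the core and were not called. With 200 bases before the start the share was 47.2% of list genes against 6.44% of all genes.

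Antigen presentation genes were called less uniformly, 3 of 20 higher and 5 lower (15% and 25%, median -1.79). B2m, the light chain of MHC class I, was at 264 and 351 CPM (KO) against 1603 and 642 CPM (Mut) (log2 change -1.86, SE 0.47, adjusted p = 0.0393, lines 250.4 to 1298 CPM). H2-D1, a class I heavy chain, was at 45.4 and 40.8 CPM (KO) against 447 and 131 CPM (Mut) (log2 change -2.73, SE 0.63, adjusted p = 0.0357, lines 35.3 to 301 CPM). Cd274, the checkpoint ligand PD-L1, was at 1.42 and 2.47 CPM (KO) against 41.2 and 22.8 CPM (Mut) (log2 change -4.02, SE 0.47, adjusted p = 0.00235, lines 1.54 to 21.4 CPM). The 3 higher genes included the endoplasmic reticulum chaperones Calr at 3933 and 2579.6 CPM (KO) against 789 and 680.5 CPM (Mut) (log2 change 2.16, SE 0.28, adjusted p = 0.00337, lines 1136 to 2689 CPM) and Pdia3 (log2 change 0.92), which also serve protein folding at large. Without Mut clone 2, 13 members were called lower. Chemokines and cytokines were split, 4 of 19 higher and 5 lower (21.1% and 26.3%, against 14.2% and 12% of all genes). Ccl5, a chemokine for T cells, fell from 62.8 and 41.2 CPM to 1.26 and 0.558 CPM, and Csf1, the macrophage growth factor, from 1245 and 1379.9 CPM to 279.7 and 393 CPM (log2 change -1.95, SE 0.25, adjusted p = 0.00322, lines 419 to 1303 CPM).

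Genes of the extracellular matrix were more often higher than lower in the KO clones. The counts were 10 higher and 4 lower of 22 tested collagens, 13 and 4 of 35 matrix glycoproteins, 9 and 0 of 15 proteoglycans, and 15 and 3 of 26 proteases and inhibitors. The shares were 45.5% and 18.2%, 37.1% and 11.4%, 60% and 0%, and 57.7% and 11.5%, against 14.2% and 12% of all genes. The fit of all 17 libraries called 3 and 1, 6 and 0, 2 and 0, and 5 and 1 of them, in the order given. Col1a1, the main chain of fibrillar collagen, was at 679 and 830.1 CPM (KO) against 9.13 and 73.9 CPM (Mut) (log2 change 4.21, SE 1.05, adjusted p = 0.0475, lines 3.61 to 4144 CPM). Col12a1, which decorates such fibrils, was at 545 and 369 CPM (KO) against 3.70 and 4.46 CPM (Mut) (log2 change 6.82, SE 0.33, adjusted p = 0.000107, lines 9.20 to 726 CPM). The neighbouring basement membrane genes Col4a5 and Col4a6 went the other way. Col4a5 was at 0 and 0.239 CPM (KO) against 181 and 143 CPM (Mut) (Mut over KO ratio 1373, 95% counting interval 469.6 to 6661, adjusted p = 0.000196, lines 0.0650 to 149.7 CPM). Col4a6 was at 0.0787 and 0.239 CPM (KO) against 100.4 and 79.3 CPM (Mut) (log2 change -9.05, SE 0.45, adjusted p = 0.000115, lines 0 to 66.9 CPM).

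Postn, a secreted matrix protein of growing connective tissue, was at 2235 and 1233 CPM (KO) against 0.942 and 0.955 CPM (Mut), above every line in both KO clones (log2 change 10.84, SE 0.48, adjusted p = 9.43e-05, lines 2.50 to 819.6 CPM). Tnc, tenascin C, was at 1423 and 1456 CPM (KO) against 34.8 and 28.5 CPM (Mut) (log2 change 5.52, SE 0.25, adjusted p = 9.83e-05, lines 55.95 to 1297 CPM). Has2, a hyaluronan synthase, was at 77.9 and 69.00 CPM (KO) against 1.81 and 0.876 CPM (Mut) (log2 change 5.77, SE 0.40, adjusted p = 0.000275, lines 7.33 to 68.4 CPM). Plau, the urokinase protease, was at 306 and 338 CPM (KO) against 25.2 and 17.99 CPM (Mut) (log2 change 3.91, SE 0.26, adjusted p = 0.000265, lines 35.2 to 271 CPM). Htra1, a secreted serine protease, fell and lay below all lines in both KO clones and above them in both Mut clones (163 and 154 CPM (KO) against 635 and 709.9 CPM (Mut), lines 265 to 509 CPM, log2 change -2.07, SE 0.20, adjusted p = 0.00119). Itga7, the laminin receptor chain of muscle, was at 1036 and 908 CPM (KO) against 15.00 and 27.9 CPM (Mut) (log2 change 5.52, SE 0.37, adjusted p = 0.000274, lines 38.9 to 1064 CPM). Itgb7, best known from lymphocytes, was at 0.708 and 0.239 CPM (KO) against 316 and 295 CPM (Mut) (log2 change -9.28, SE 0.42, adjusted p = 9.83e-05, lines 7.01 to 167 CPM). Of 23 tested integrins and laminins 8 rose and 4 fell (34.8% and 17.4%, against 14.2% and 12% of all genes).

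In 4 signalling lists more members were called higher than lower. Of 16 tested Notch pathway genes 8 rose and 2 fell (50% and 12.5%). The receptor Notch3 was at 59.6 and 62.3 CPM (KO) against 0.580 and 0.716 CPM (Mut) (log2 change 6.55, SE 0.32, adjusted p = 0.000107, lines 1.31 to 171 CPM), the ligand Dll1 at 30.1 and 52.3 CPM (KO) against 1.74 and 0.876 CPM (Mut) (log2 change 4.97, SE 0.48, adjusted p = 0.0012, lines 1.05 to 40.2 CPM) and the target Hes1 at 153 and 107 CPM (KO) against 11.8 and 16.8 CPM (Mut), above all lines in the KO clones (log2 change 3.20, SE 0.31, adjusted p = 0.00108, lines 11.9 to 50.2 CPM). Rbpj, the DNA-binding partner of Notch, fell (121 and 139 CPM (KO) against 602 and 893 CPM (Mut), log2 change -2.51, SE 0.26, adjusted p = 0.00154, lines 181 to 1008 CPM). Of 41 tested TGF-beta and BMP genes 17 rose and 4 fell (41.5% and 9.76%), among them the receptor Tgfbr2 at 380.2 and 440.1 CPM (KO) against 77.2 and 97.8 CPM (Mut) (log2 change 2.25, SE 0.23, adjusted p = 0.00133, lines 94.8 to 385 CPM), the activin antagonist Fst at 25.03 and 22.1 CPM (KO) against 0.290 and 0.557 CPM (Mut) (log2 change 5.79, SE 0.45, adjusted p = 0.000515, lines 0.585 to 29.5 CPM) and Gdf15, a stress cytokine with no counts in the Mut clones and 34.95 and 17.2 CPM in the KO clones (at least 229.6-fold higher, adjusted p = 0.00144, lines 0.450 to 20.2 CPM).

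Of 29 tested WNT genes 10 rose and 4 fell (34.5% and 13.8%, against 14.2% and 12% of all genes). Axin2, a feedback target of the pathway, was at 15.1 and 14.98 CPM (KO) against 0.435 and 0.0796 CPM (Mut) (log2 change 5.80, SE 0.66, adjusted p = 0.00215, lines 0.193 to 15.6 CPM), and Ror2, a receptor for WNT5A, had 0 and 1 counts in the KO clones and 57.5 and 65.03 CPM in the Mut clones. The pathway antagonist Dkk2 fell from 31.1 and 27.1 CPM to 0.0787 and 0.319 CPM (log2 change -7.12, SE 0.54, adjusted p = 0.00046, lines 0.134 to 291 CPM). Of 19 tested LIF and STAT3 genes 8 rose and 2 fell (42.1% and 10.5%). The receptor Lifr was at 25.2 and 36.4 CPM (KO) against 4.28 and 7.004 CPM (Mut) (log2 change 2.47, SE 0.37, adjusted p = 0.0058, lines 8.62 to 76.9 CPM). Bcl6, a repressor, was at 42.9 and 46.6 CPM (KO) against 8.84 and 8.44 CPM (Mut) (log2 change 2.39, SE 0.25, adjusted p = 0.00153, lines 12.8 to 43.6 CPM). The fit of all 17 libraries called 3, 3, 1 and 3 of these 4 lists higher, in the order given.

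Growth factor genes were called on both sides, 12 higher and 10 lower of 45, with insulin-like growth factors at the extremes. The shares were 26.7% and 22.2%, against 14.2% and 12% of all genes. Igf2, the fetal growth factor made by differentiating myoblasts, was at 1517 and 1675 CPM (KO) against 0.0725 and 0.239 CPM (Mut) (log2 change 13.28, SE 0.44, adjusted p = 5.34e-05), with the KO clones inside and the Mut clones below the lines' 0.259 to 1725 CPM. The binding proteins Igfbp5 and Igfbp2 rose, Igfbp5 from 0.145 and 0.159 CPM to 730.3 and 654 CPM (log2 change 12.08, SE 0.35, adjusted p = 5.34e-05, lines 0.643 to 3968 CPM), and Igfbp4 fell from 221 and 131 CPM to 0.630 and 0.956 CPM (log2 change -7.76, SE 0.45, adjusted p = 0.000164, lines 20.1 to 611 CPM). Igf2 and Peg3 are imprinted genes expressed from the paternal allele. Peg3 had no counts in the Mut clones and 134 and 109.7 CPM in the KO clones (at least 1069.6-fold higher, adjusted p = 0.000142, lines 0 to 399 CPM). The list of imprinted genes as a whole, however, had 5 higher and 3 lower of 19 (26.3% and 15.8%). Egfr, the receptor of epidermal growth factor, was low and not called, at 4.17 and 3.27 CPM (KO) against 2.46 and 7.80 CPM (Mut) (log2 change -0.44, SE 0.62, adjusted p = 0.63, lines 1.87 to 31.4 CPM).

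Yap1, the coactivator at the end of the Hippo pathway, was at 2261 and 1335 CPM (KO) against 149.5 and 120.4 CPM (Mut) (log2 change 3.75, SE 0.33, adjusted p = 0.00082). The tumour lines ran from 96.4 to 2648 CPM and the MSC from 172 to 205 CPM. Its neighbours on chromosome 9, Birc2 at chr9:7818226-7837131 and Birc3 at chr9:7847468-7873205, which encode inhibitors of apoptosis next to Yap1 at chr9:7931999-8004638, rose with it. Birc2 was at 187 and 80.2 CPM (KO) against 13.6 and 12.6 CPM (Mut) (log2 change 3.37, SE 0.44, adjusted p = 0.00466, lines 10.4 to 242 CPM). Birc3 was at 67.5 and 39.1 CPM (KO) against 17.5 and 12.97 CPM (Mut) (log2 change 1.82, SE 0.34, adjusted p = 0.0124, lines 6.17 to 121 CPM). Among 27 tested members of the list of YAP and TEAD targets, which counts Yap1 itself, 8 rose and 5 fell (29.6% and 18.5%). The shares of all genes were 14.2% and 12%. The partner Tead3 was at 45.2 and 50.3 CPM (KO) against 4.42 and 3.26 CPM (Mut) (log2 change 3.64, SE 0.30, adjusted p = 0.000611, lines 10.2 to 71.6 CPM). Arhgef17, a guanine nucleotide exchange factor, was at 0.394 and 1.12 CPM (KO) against 91.2 and 56.6 CPM (Mut), below all lines (59.6 to 125 CPM) in both KO clones (log2 change -6.58, SE 0.53, adjusted p = 0.000653), and F3, tissue factor, fell from 42.8 and 72.2 CPM to 3.94 and 7.33 CPM (log2 change -3.33, SE 0.42, adjusted p = 0.00354, lines 15.6 to 43.03 CPM).

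Of 50 tested S-phase and mitosis genes 6 rose and none fell (12% against 14.2% of all genes, and 0% against 12%), with a median log2 change of 0.51. Without regard to the test, both KO clones lay above both Mut clones for 30 of the 50 and below them for 0, against 34.6% and 35.1% of all genes. Rrm2, a subunit of ribonucleotide reductase, was at 341 and 391 CPM (KO) against 82.9 and 73.5 CPM (Mut) (log2 change 2.24, SE 0.21, adjusted p = 0.00107, lines 35.7 to 651 CPM). Foxm1, a mitotic transcription factor, was at 202 and 200.5 CPM (KO) against 123 and 78.2 CPM (Mut) (log2 change 1.01, SE 0.27, adjusted p = 0.0351, lines 41.6 to 252 CPM). Without Mut clone 1 the count was 19, and without any of the other 3 clones it was 1 or 2. The G1 cyclins moved in opposite directions, with Ccnd1 at 125 and 61.4 CPM (KO) against 673 and 562 CPM (Mut) (log2 change -2.71, SE 0.37, adjusted p = 0.00511, lines 141 to 688 CPM). Ccnd3 was at 231 and 240.5 CPM (KO) against 94.2 and 61.8 CPM (Mut) (log2 change 1.61, SE 0.26, adjusted p = 0.00749, lines 138 to 405 CPM).

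Sterol and fatty acid synthesis genes rose in 16 of 35 tested and fell in 1 (45.7% and 2.86%, median 0.91). Hmgcs1, which makes the precursor of mevalonate, was at 296 and 274 CPM (KO) against 98.4 and 38.9 CPM (Mut) (log2 change 2.07, SE 0.45, adjusted p = 0.0259, lines 41.1 to 269.6 CPM). Cyp51, a sterol demethylase, was at 363 and 395 CPM (KO) against 137 and 139 CPM (Mut) (log2 change 1.47, SE 0.20, adjusted p = 0.00383, lines 66.2 to 328 CPM). Scd2, a desaturase, was at 2338 and 2856 CPM (KO) against 686 and 286 CPM (Mut) (log2 change 2.43, SE 0.45, adjusted p = 0.0142, lines 305 to 2065 CPM). The values were lowest in Mut clone 2 for Hmgcs1 and Scd2, and the count was 16 without Mut clone 1 but 1 to 4 without any other clone.

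Stress genes of the ATF4 and unfolded protein response were called on both sides, 8 higher and 10 lower of 32 (25% and 31.25%). The lower ones included Trib3, a pseudokinase, at 36.1 and 24.1 CPM (KO) against 152 and 143 CPM (Mut) (log2 change -2.27, SE 0.27, adjusted p = 0.00247, lines 4.33 to 123 CPM). Chac1, which degrades glutathione, was at 36.5 and 36.5 CPM (KO) against 142 and 225 CPM (Mut) (log2 change -2.31, SE 0.28, adjusted p = 0.00269, lines 8.80 to 157 CPM). Nupr1, a small stress-induced nuclear protein, was at 33.1 and 21.9 CPM (KO) against 178 and 174 CPM (Mut) (log2 change -2.66, SE 0.27, adjusted p = 0.00137, lines 13.1 to 191 CPM). Of 35 tested glycolysis and hypoxia genes 1 rose and 4 fell (2.86% and 11.4%), among the latter Car9, a carbonic anhydrase, at 7.64 and 5.10 CPM (KO) against 34.7 and 27.6 CPM (Mut) (log2 change -2.27, SE 0.33, adjusted p = 0.0051, lines 0.526 to 101 CPM). Of 30 tested AP-1 and immediate early genes 3 rose and 9 fell (10% and 30%). Junb rose to 182 and 179.6 CPM from 69.3 and 78.5 CPM. Etv5, an ETS factor, fell to 9.92 and 14.7 CPM from 78.6 and 45.8 CPM. Of 33 tested antioxidant genes under NRF2 6 rose and 1 fell (18.2% and 3.03%). Of 34 apoptosis and autophagy genes 4 were called each way (11.8% each). The shares of all genes were 14.2% higher and 12% lower.

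Lineage and mesenchymal factors were mixed. Twist2 and Twist1, basic helix-loop-helix factors of mesenchyme, both fell, Twist2 from 86.03 and 65.7 CPM to 0 and 0.159 CPM and Twist1 from 95.7 and 96.5 CPM to 25.3 and 29.1 CPM (log2 change -1.80, SE 0.22, adjusted p = 0.00283, lines 55.8 to 149 CPM). Cdh2, N-cadherin, was at 435 and 442 CPM (KO) against 171 and 118 CPM (Mut) and above every line in both KO clones (log2 change 1.61, SE 0.25, adjusted p = 0.00635, lines 10.9 to 203 CPM). Runx2, the osteoblast factor, was at 79.5 and 95.9 CPM (KO) against 32.1 and 37.5 CPM (Mut) (log2 change 1.35, SE 0.23, adjusted p = 0.00865, lines 54.7 to 114 CPM). Cebpa, a fat cell factor, was at 0.630 and 0.717 CPM (KO) against 2.68 and 10.3 CPM (Mut), below all lines in both KO clones and in Mut clone 1 (log2 change -3.23, SE 0.77, adjusted p = 0.0257, lines 6.81 to 82.6 CPM). Of 18 tested Hox genes, which mark position along the body axis, 2 were called higher and 5 lower. The shares were 11.1% and 27.8%, against 14.2% and 12% of all genes. Hoxc8 was at 1.89 and 2.63 CPM (KO) against 20.6 and 28.9 CPM (Mut) (log2 change -3.43, SE 0.38, adjusted p = 0.00186, lines 2.47 to 24.8 CPM). Hoxc13 was at 10.5 and 13.2 CPM (KO) against 0.217 and 0.796 CPM (Mut) (log2 change 4.56, SE 0.64, adjusted p = 0.00472, lines 0.0643 to 9.18 CPM). Pdgfrb, the receptor of stromal and mural cells, was at 214 and 255 CPM (KO) against 9.42 and 2.39 CPM (Mut) (log2 change 5.31, SE 0.69, adjusted p = 0.00778, lines 37.8 to 446 CPM). Ly6a, which encodes Sca-1, was at 13.4 and 10.1 CPM (KO) against 50.3 and 28.3 CPM (Mut) (log2 change -1.73, SE 0.36, adjusted p = 0.0166, lines 2.10 to 334 CPM).

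Some genes were present in 1 group of clones alone. There were 41 genes with no Mut counts and at least 10 CPM in both KO clones, and 7 in the opposite direction. The highest of the first kind was Lrrn1, a neuronal leucine-rich repeat protein, at 443 and 839 CPM (at least 5619.5-fold higher, adjusted p = 0.000612, lines 0 to 80.9 CPM), followed by Tmem8c, Cap2, Peg3 and Cpne4. The highest of the second kind was Kcnab2, a potassium channel subunit, at 287 and 147 CPM (at least 1853-fold lower, adjusted p = 0.000992, lines 0 to 153 CPM), and Lipo1, Hmgcll1 and Cxcl11 were at 29.1 and 19.5 CPM, 20.1 and 19.3 CPM and 14.5 and 16.7 CPM. Each of these genes was also at or near 0 in at least 1 tumour line and above 10 CPM in at least 1 other.

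Genes for which the KO clones left the range of all 10 lines while the Mut clones did not both lie beyond it numbered 323 of 1353 higher and 253 of 1193 lower (23.9% and 21.2%), counting genes whose higher group reached a mean of 10 CPM. The mirrored counts, with both Mut clones beyond the lines and the KO clones not both, were 357 and 385 (26.4% and 32.3%). Over all such genes tested the shares were 6.21% and 5.41% for the KO clones and 6.597% and 9.40% for the Mut clones. Fndc1, a fibronectin domain protein, was at 355 and 441 CPM (KO) against 0.145 and 0.0796 CPM (Mut), with 0 to 9.84 CPM in the lines (KO over Mut ratio 3497, 95% counting interval 1196 to 16962, adjusted p = 5.34e-05). Alox5, which starts leukotriene synthesis, was at 473 and 361 CPM (KO) against 0.145 and 0.0796 CPM (Mut), with 0 to 132 CPM in the lines (KO over Mut ratio 3668, 95% counting interval 1255 to 17789, adjusted p = 5.38e-05).

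Differences were unevenly spread over the chromosomes. On chromosome 16 the median log2 change was 0.76 and 83.8% of 395 tested genes were above 0, with 141 called higher and 15 lower (35.7% and 3.80%). On chromosome 8 it was 0.61, with 214 higher and 36 lower of 670 (31.9% and 5.37%). On chromosome 1 it was -0.56 and 24.2% of 699 genes were above 0, with 73 higher and 191 lower (10.4% and 27.3%). The shares of all genes were 14.2% higher and 12% lower. Against the median of the tumour lines, chromosome 16 stood at 0.32 and 0.62 in the KO clones and -0.11 and -0.23 in the Mut clones, while chromosome 1 stood at 0.17 and -0.20 in the KO clones and 0.52 and 0.45 in the Mut clones. For chromosome 1 the libraries TL1 3a, TL1 3b and TL2 3 stood at 0.34, 0.34 and 0.38. Copy number was not measured.

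**Figure D5:**
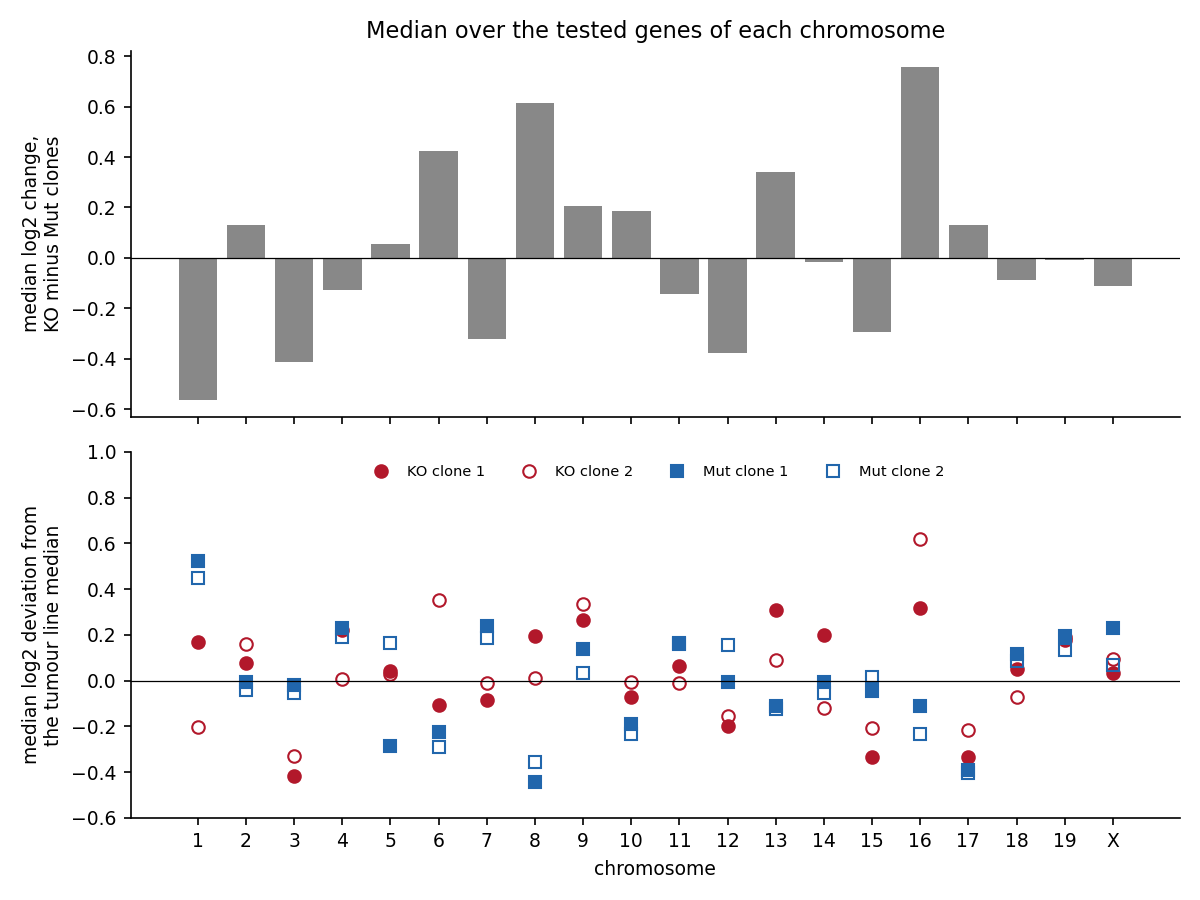
Upper panel, median log2 change between KO and Mut clones over the tested genes of each chromosome (y axis). Lower panel, median log2 deviation of each clone from the tumour line median, where chromosome 16 is positive in both KO clones (0.32 and 0.62) and chromosome 1 is highest in the Mut clones (0.52 and 0.45).

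In windows of 25 consecutive tested genes, the 3 largest median changes that do not overlap were all positive. They lay on chromosome 8 from 104339383 to 105471422 (median 1.42, 24 of 25 genes above 0, 14 called higher), on chromosome 16 from 65815189 to 87733346 (1.32, 24 of 25, 16 called) and on chromosome 9 from 3403592 to 14326134 (1.28, 23 of 25, 13 called). The chromosome 9 window holds Yap1, Birc2 and Birc3, and its genes ranged from a log2 change of -1.11 to 8.99. In windows of 50 genes the largest was negative, on chromosome 12 from 28630847 to 52310970 (median -1.09, 24 called lower). All these windows were picked by their medians, and over all genes tested 14.2% were called higher and 12% lower.

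Most markers of blood, endothelial and epithelial cells were low in the clones, and of 16 neural and glial markers 3 reached 10 CPM in each clone. Of 23 macrophage and blood cell markers, 12 to 16 had no counts in a clone, and their sum was 7.40 and 8.05 CPM (KO) against 18.7 and 13.9 CPM (Mut) and 16.5 to 68.2 CPM in the lines. The pan-leukocyte marker Ptprc had no counts in either KO clone or in Mut clone 2 and was at 0.0725 CPM in Mut clone 1. Endothelial markers summed to 1.57 and 5.34 CPM (KO) against 13.6 and 24.3 CPM (Mut), with 2.89 to 24.1 CPM in the lines, and Cdh5 was at or below 0.319 CPM and Pecam1 at or below 0.637 CPM in every clone. The larger part in the Mut clones was Flt1, a VEGF receptor, at 7.32 and 18.1 CPM against 0.0787 and 0 CPM. Epithelial markers summed to 13.4 and 15.7 CPM (KO) against 114.7 and 39.2 CPM (Mut), with 12.5 to 461 CPM in the lines. In the Mut clones Krt18, a simple keratin, made up 109.7 and 34.1 CPM, while Epcam was at or below 0.217 CPM. Neural and glial markers summed to 566.8 and 516.5 CPM (KO) against 129.4 and 117.7 CPM (Mut), so that both KO clones lay above every tumour line (81.04 to 366 CPM) and every MSC library (182 to 372 CPM). Of these sums the adhesion molecule Ncam1, also a marker of myoblasts, was 394 and 431 CPM and 78.1 and 69.8 CPM. The neural and glial list had 7 members tested, with 3 called higher and 3 lower. The part of these other cell types' markers in the results was not tested.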

How the data were processed

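The authors deposited raw counts, whole numbers for each of 23420 gene symbols, from single-end reads of 60 bases. The submitters' processing notes name TopHat2 2.0.10, HTSeq 0.6.1p1, cutadapt, the build mm10 and DESeq2 1.6.3. Annotation and strand setting were not given in the sources used here, so reads of overlapping genes cannot be told apart. In the table, 4 columns match no sample and were not used. Libraries were grouped by title. The clones carry no replicate number and were numbered in accession order.

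The 4 clone libraries were fitted with edgeR 4.0.16 (filterByExpr, trimmed mean of M values, robust quasi-likelihood, Benjamini-Hochberg adjustment) in R 4.3.3. On counts simulated for this comparison over 12061 genes, 8 of 96 genes changed by 1 on the log2 scale and 64 of 99 changed by 2 were recovered, with 14 false calls. Where 1 group had no counts, the fold is a lower bound that takes 3 counts over that group, and a ratio with 1 to 3 counts has a 95% counting interval. Both cover counting error only. Alternatives were other scalings and filters, limma-voom (limma 3.58.1), DESeq2 1.42.0, a fit of all 17 libraries and leaving out each clone. Of the table's symbols 23259 matched RefSeq, 1688 of them through a synonym.

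The compared groups and the 44 gene lists were chosen with earlier results of these data known. Named genes are Trp53, 15 fixed genes, the 12 largest called changes each way at a mean of at least 10 CPM, up to 4 called members of a list by adjusted p, and up to 5 genes each way with no counts in 1 group. Myod1, Pax3, Gbp4, Gbp6, Oas1g, Trim30a, Iigp1, Dtx3l, Ifit1, Ifit3, Irf7, Oas3, Acta2, Tagln, Myl9, Cnn1, Actg2, Actc1, Hmgcs1, B2m, H2-D1, Ccng1, Ak1, Slc19a2, Rrm2b, Bax, Fndc1, Alox5, Col1a1, Pdgfrb, Thy1, Ly6a, Itgb1, Ptprc, Cdh5, Epcam and Pecam1 were named after their values were seen, as were the CArG count in skeletal muscle genes and the printed promoters. Some genes that these rules name are not reported here.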

Additional observations from a re-analysis of the deposited data

Results flagged for a closer look

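Single tumour lines stood far from the others of their group for some of the genes compared between the clones, with a gap to the nearest line that exceeded the critical value of Dixon's test at 95% among 6 TL1 or 4 TL2 lines. Chance alone gives such a gap in about 1 of 20 groups, and 17 measures were examined in each of the 2 groups. In TL2, line 3 stood highest for Myc at 1042 CPM, for Sox2 at 81.7 CPM and for Klf4 at 225 CPM. This is the line that both Mut clones resembled most, and the Mut clones had more Myc and Klf4 than the KO clones. In TL1, line 3b stood highest for Myc at 620 CPM and for Trp73 at 0.149 CPM, line 3a for Egfr at 31.4 CPM and line 2b for Pou5f1 at 0.0751 CPM. The Trp73 and Pou5f1 values stand for very few counts.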

How the results depend on the processing

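The counts of 1734 higher and 1466 lower genes moved by less than 1.5 times with other scalings, other filters, without Rn45s, with DESeq2 and with limma-voom. With the spread estimated from all 17 libraries they fell to 512 and 308, and with 1 clone left out they ranged from 796 to 1016 higher and from 502 to 753 lower. In both cases the construction differs, by the spread between lines or by fewer libraries. A group of 1 library is then assumed to vary like the other group. The change of Trp53 kept its direction and its call under every alternative run. Of 193 called genes, 69 remained called in the fit of all 17 libraries and 185 or more under the other alternatives that keep every clone. This set holds genes that the naming rules select and also genes named after their values were seen. None of them changed direction under any alternative, including those with 1 clone left out. Among named genes that were not called, the direction turned with 1 clone left out. Their log2 changes then ranged from -0.17 to 0.90 for Nanog (negative without KO clone 2), from -0.23 to 0.12 for Cd44 (positive without Mut clone 1 or KO clone 2, at 0.07 for the latter) and from -1.05 to 0.59 for Egfr (positive without Mut clone 2). The cause was not tested. Without Mut clone 2, 13 antigen presentation genes were called lower in place of 5, and without KO clone 2 the called sterol synthesis genes were 1 in place of 16. The highest median of a window was 1.06 with 50 genes in place of 1.42 with 25. No paired analysis was possible because the clones carry no replicate number in the labels. With 2 libraries a group, a change of more than 2-fold was not always called. The estimated change exceeded 2-fold for 1498 of the higher genes, 1190 of the lower genes and 959 of the genes not called. In counts simulated with far fewer changed genes than were called here, 8 of 96 genes changed by 1 on the log2 scale were recovered.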

Other observations

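Among the named genes, the smallest adjusted p in the fit of all 17 libraries was that of Arhgef17 (5.31e-05), followed by Synpo2 (0.00378), F3 (0.00452) and Htra1 (0.0061). For all 4 the tumour lines lay between the 2 groups of clones or overlapped the Mut clones. Igf2, Sox2, Isg15 and Yap1, each called in the fit of the clones alone, were not called in that fit (adjusted p = 0.12, 0.098, 0.085 and 0.16).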
